A study of Mus musculus with 10 samples.

Results

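The mitochondrial chromosome of the mouse carries 37 genes, 2 for ribosomal RNA, 13 for mRNA and 22 for transfer RNA, and all 37 were present among the 48471 genes of the deposited files. They were taken by their symbols, which begin with mt-. They are described here in cells of mouse pancreatic ductal adenocarcinoma that are labelled as fibroblasts, separated by flow sorting on CD90 at the cell surface. The CD90-negative and the CD90-positive group each comprised 5 RNA-seq libraries. Both are labelled as myofibroblastic cancer-associated fibroblasts (myCAFs), the contractile, matrix-producing fibroblasts of the tumour stroma. Summed fibroblast and myofibroblastic markers were lower in CD90-negative libraries without overlap. Of 10 cancer epithelial markers 7 were called higher, beside 5.83% of all genes tested, as given below. Both groups came from the same tumours, which arose from KPC T-LOH organoids placed orthotopically into C57BL/6J mice; KPC is the name of a mouse model of this cancer. By the sample titles, 4 animals went into tumour pool 1, 1 into pool 2, 2 into pool 3, 3 into pool 4 and 1 into pool 5, which makes 11, whereas the series' design text counts 5 male mice. Each pool gave 1 library per group. No source used here states an age or which further markers defined the sorting gate.

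Mitochondrial DNA is a small circle that is transcribed from both strands into long precursors. Transfer RNAs punctuate most of the ribosomal and coding sequences, and cutting the tRNAs out frees the rRNAs and mRNAs. The coding genes specify subunits of respiratory complexes I, III, IV and V, and every other protein of the mitochondrion, including those that copy, cut and stabilise its RNA, is encoded in the nucleus.

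CD90-negative libraries held 33.3 to 47.7 M (1 M = 1000000) estimated counts and CD90-positive libraries 11.7 to 38.2 M. Nuclear protein-coding genes took 3.71 to 19.8 M of them in CD90-negative and 4.57 to 28.5 M in CD90-positive libraries. The RNA input was 0.1 to 1.2 ng per library and the RNA integrity number 3.1 to 8.7, per the labels, and neither is recorded for a given library. Thy1, which encodes CD90 and checks the sort, measured 16.01, 10.2, 8.06, 5.98 and 2.07 CPM (TMM-normalised counts per 1000000) in the CD90-negative libraries of pools 1 to 5, and 97.3, 102, 39.2, 89.8 and 117 in the CD90-positive libraries. It was lower in 5 of 5 pools, and edgeR's quasi-likelihood test with the pool as a block put the log2 fold at -3.50, with an SE of 0.50 and an adjusted p of 0.0056. The CD90-negative library of pool 4 stood apart, with the fewest nuclear protein-coding counts of its group, and folds without pool 4 are given beside the results.

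Several mitochondrial mRNAs have near-identical copies in the nuclear genome, and their counts were divided between gene and copy. The annotation lists 7 such copies, unprocessed pseudogenes on chromosome 1 that match a mitochondrial gene at 99% identity or more over at least 90% of their length. The 3′ ends of 4 pairs are shown because they are where gene and copy can be told apart; capitals mark the final bases that the annotated copy lacks, which are the stop codon, or in mt-Co3 the first base of a stop codon that the poly(A) tail completes. The sequences are those of the GENCODE M21 transcripts (build GRCm38), 5′ to 3′, with the mitochondrial gene above its copy.
mt-Co2: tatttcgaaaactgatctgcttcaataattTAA
Gm28661: tatttcgaaaactgatctgcttcaataatt
mt-Atp6: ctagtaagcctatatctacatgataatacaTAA
Gm10925: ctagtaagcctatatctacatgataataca
mt-Co3: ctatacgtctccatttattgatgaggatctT
Gm28437: ctatacgtctccatttattgatgaggatct
mt-Nd4l: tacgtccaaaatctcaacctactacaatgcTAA
Gm10222: tacgtccaaaatctcaacctactacaatgc

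The copy of mt-Co2 is identical to it over 681 of 684 bases, that of mt-Atp6 over 678 of 681, that of mt-Co3 over 783 of 784 and that of mt-Nd4l over 294 of 297, so a read inside those stretches cannot be placed on one or the other. A further copy, of mt-Nd3, differs from the mitochondrial gene within its own length by a single substitution, T3C, counted from the first base of the transcript and shown in capitals in the first bases of both.
mt-Nd3: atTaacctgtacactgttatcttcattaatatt
Gm28438: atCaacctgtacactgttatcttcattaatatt

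The share of counts placed on the copy differed widely between pairs, and its cause was not tested. Gm28661 received 94.6 to 98.5% of the counts of mt-Co2 plus copy in CD90-negative libraries and 96.4 to 100% in CD90-positive libraries, and mt-Co2 itself was listed at 0 in the CD90-positive libraries of pools 2 and 3. Gm10925 received 85.1 to 97.4% of the mt-Atp6 counts in CD90-negative and 86.7 to 99.9% in CD90-positive libraries. For mt-Co3 the copy's share lay anywhere from 44.7 to 69.9% in CD90-negative and from 20.3 to 69.4% in CD90-positive libraries, and for mt-Nd4l from 12.3 to 61.0% and from 0 to 70.3%. The copies of mt-Nd3 (0.421 to 6.03% and 1.41 to 11.6%) and of a stretch of mt-Co1 (0.865 to 2.47% and 0.553 to 0.771%) took little, and Gm28439, the copy of a stretch of mt-Nd4, had 0 counts in all 10 libraries. Together the copies held 24.1% ± 1.42 of mitochondrial mRNA and copy counts in the CD90-negative group and 19.7% ± 1.17 in the CD90-positive group (SD, n = 5 each), and the groups did not overlap. Values of single mRNAs are therefore given with the copies merged into their gene wherever this changes them, an alternative chosen after the data were seen.

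**Figure D1:**
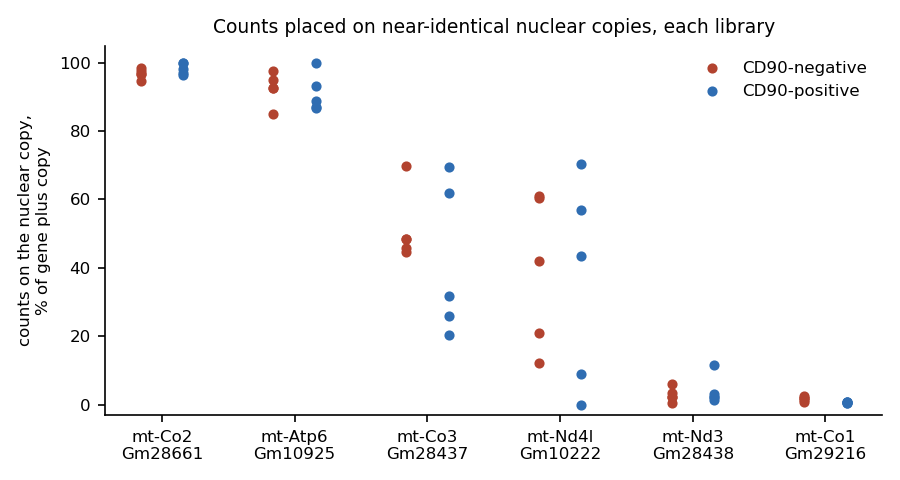
Share of counts (percent of gene plus copy, y axis) placed on the near-identical nuclear copy of 6 mitochondrial mRNAs, 1 point per library, CD90-negative left of CD90-positive. The copies of mt-Co2 and mt-Atp6 hold 85.1% or more in every library, and those of mt-Co3 and mt-Nd4l vary widely within both groups.

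The ribosomal RNAs made up most mitochondrial counts and were higher in CD90-negative libraries. The mitochondrial share of gene-matched counts was 59.9, 59.8, 38.6, 88.6 and 67.6% in the CD90-negative libraries of pools 1 to 5, against 26.6, 25.3, 11.6, 36.3 and 49.4% in the CD90-positive libraries, higher in 5 of 5 pools although the group ranges overlapped. Per 1000 nuclear protein-coding counts, mt-Rnr1 (ENSMUSG00000064337, the RNA of the small ribosomal subunit) had 565, 595, 217, 3779 and 884 counts in CD90-negative and 123, 111, 43.9, 215 and 356 in CD90-positive libraries. For mt-Rnr2 (ENSMUSG00000064339, the RNA of the large subunit) the values were 1022, 1019, 411, 6676 and 1523 in CD90-negative and 230.2, 219, 81.9, 359 and 655 in CD90-positive libraries. Within each pool the CD90-negative library was the higher, by far the most in pool 4, and the lowest CD90-negative library, that of pool 3, lay below the highest CD90-positive library, that of pool 5.

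The log2 fold was 2.21 for mt-Rnr1 (SE 0.47, adjusted p = 0.0135) and 2.16 for mt-Rnr2 (SE 0.50, adjusted p = 0.0211) by edgeR's quasi-likelihood test. Without pool 4 the folds were 1.78 and 1.70 and both were still called. Neither was called without pool 1 (adjusted p = 0.078 and 0.106), without pool 2 (0.0684 and 0.0924), without the pool as a block (0.071 and 0.0755) or by DESeq2 (0.317 and 0.329). In these bulk libraries more RNA per cell, fewer nuclear transcripts per cell and a different mixture of cells cannot be told apart. Differences in RNA input or integrity, neither recorded for a given library, cannot be separated from these either. The same holds for how much ribosomal RNA the library preparation left in each library. That amount, and its part in the ratio of rRNA to mRNA given below, was not tested.

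The ratio of the ribosomal RNAs to each other overlapped between the groups, and their ratio to the mRNAs did not. The count ratio of mt-Rnr2 to mt-Rnr1 was 1.81, 1.71, 1.89, 1.77 and 1.72 in CD90-negative and 1.86, 1.97, 1.86, 1.67 and 1.84 in CD90-positive libraries. The ratio averaged 1.78 ± 0.073 and 1.84 ± 0.110 (SD, n = 5 each), was higher in 2 of 5 pools and differed by -0.05 on the log2 scale (exact paired permutation p = 0.4375, two-sided; the smallest p that 5 pools allow is 0.0625). Each mitochondrial mRNA count, copies merged, was accompanied by 12.4, 11.3, 8.86, 15.1 and 14.1 rRNA counts in CD90-negative libraries, against 6.74, 6.29, 7.68, 8.13 and 7.81 in CD90-positive libraries. These ranges did not overlap, although in pool 3 the libraries differed little. With the copies left out the ratio averaged 16.3 ± 3.36 and 9.13 ± 1.04 (SD, n = 5 each), again without overlap.

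Mitochondrial mRNA was also higher relative to nuclear mRNA, by less than the rRNA. The 13 mRNAs, copies merged, had 12.8, 14.3, 7.08, 69.2 and 17.1 counts per 100 nuclear protein-coding counts in CD90-negative libraries and 5.25, 5.24, 1.64, 7.06 and 12.9 in CD90-positive libraries. The CD90-negative library was higher in 5 of 5 pools, the pool 4 library exceeded every other, and the groups overlapped. With copies not merged, the mean log2 difference over pools was 1.63, and 1.24 without pool 4. Relative to all gene-matched counts, mRNA without copies changed less, at 3.59% ± 0.435 in CD90-negative and 2.93% ± 1.24 in CD90-positive libraries (SD, n = 5 each), and was higher in 4 of 5 pools.

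**Figure D2:**
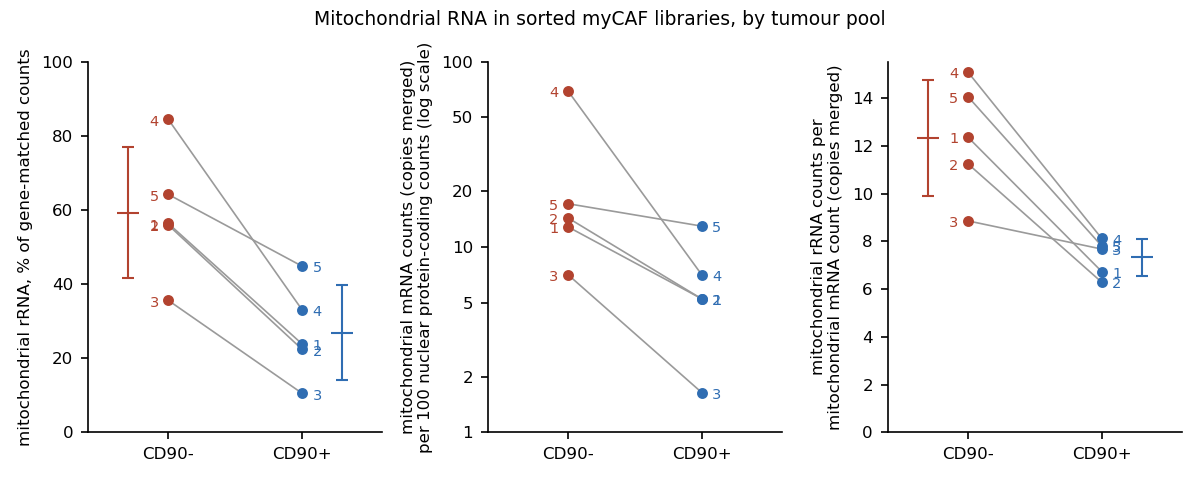
Mitochondrial rRNA as percent of gene-matched counts (left), mitochondrial mRNA counts per 100 nuclear protein-coding counts on a log axis (middle) and rRNA counts per mitochondrial mRNA count (right), CD90-negative left of CD90-positive. Points are libraries numbered by pool, lines join a pool, and bars beside the points in the outer panels give mean and SD (n = 5); all lines fall to the right, and in the right panel alone do the groups not overlap (8.86 to 15.1 against 6.29 to 8.13).

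Of the 37 mitochondrial genes, 20 passed the filter on low counts: both rRNAs, all 13 mRNAs and 5 of 22 tRNAs. Counted apart from the copies, 7 of the 20 were called at an adjusted p under 0.05, all higher in CD90-negative libraries, where 5.83% of the 15378 genes tested were called higher and 7.05% lower. The called genes were mt-Rnr1, mt-Rnr2, mt-Co1, mt-Co3, mt-Atp8, mt-Tg and mt-Tp. The tRNAs mt-Tg and mt-Tp passed the filter largely through CD90-negative libraries, so their direction adds no support, here or with copies merged. Scaled by total counts only, which lowered the median log2 fold of all genes to -0.90, 3 of the 20 were called higher (mt-Rnr1, mt-Rnr2 and mt-Tg), beside 0.767% of all genes called higher and 12.8% lower. Without the pool as a block 2 of 20 were called higher (2.74% of all genes), and without pools 4 and 5 4 of 18 (2.21% of all genes). DESeq2 called 15 of 20 higher, beside 10.6% of all genes. The fitted log2 folds of the 13 mRNAs were all positive, with a median of 1.16, against a median of 0.04 over all genes tested. For 0 of the 20 did the groups lie apart, whereas 3.32% of all genes lay apart with CD90-negative libraries higher and 4.62% with them lower. On the same scale of TMM-normalised counts, 9 of the 20 were higher in 5 of 5 pools, against 13.5% of all genes. With the copies merged, 9 of the 20 were called, beside 5.86% of 15372 genes called higher; mt-Co2 and mt-Atp6 were added.

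**Figure D3:**
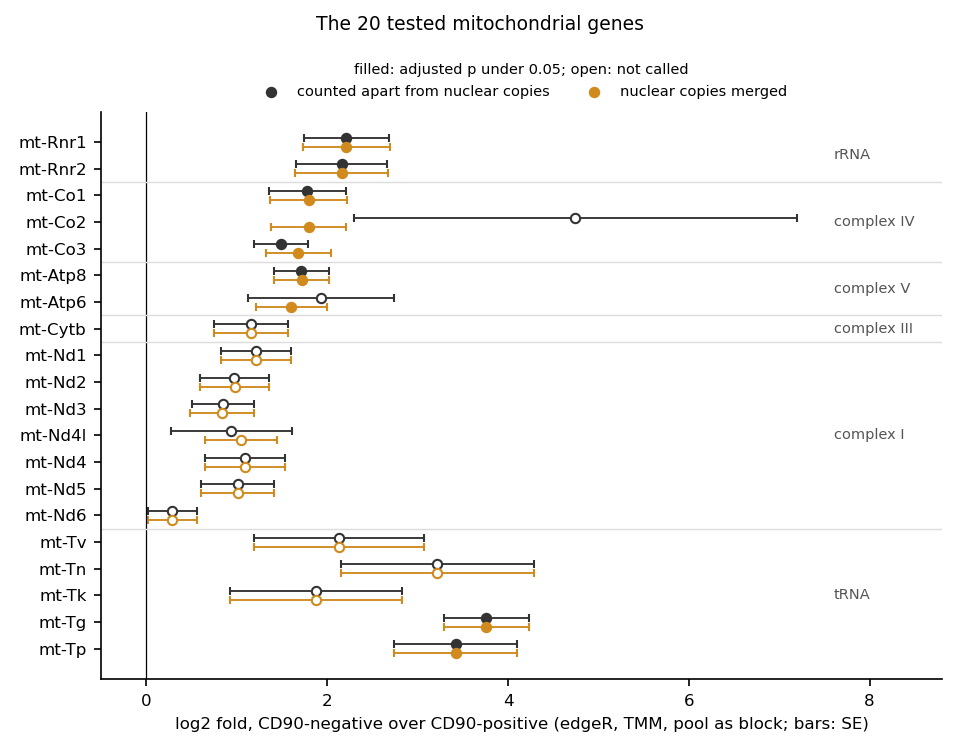
Fitted log2 folds (x axis, CD90-negative over CD90-positive; bars are SE) of the 20 tested mitochondrial genes, before and after merging the nuclear copies; filled points have an adjusted p under 0.05. With copies merged, the 5 complex IV and V genes are called between 1.60 and 1.80, and none of the complex I genes or mt-Cytb is, at 0.29 to 1.21.

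The mRNAs of complex IV, cytochrome c oxidase, were all called once the copies were merged. mt-Co1 (ENSMUSG00000064351), the catalytic subunit, had 42.7, 46.6, 22.2, 258 and 61.3 counts per 1000 nuclear protein-coding counts in CD90-negative and 13.8, 13.7, 4.42, 18.9 and 35.7 in CD90-positive libraries. mt-Co2, which receives electrons from cytochrome c, had 13.8, 15.1, 6.71, 82.6 and 18.1 in CD90-negative and 4.11, 4.16, 1.39, 6.35 and 11.5 in CD90-positive libraries. mt-Co3, a structural core subunit, had 8.44, 8.34, 4.67, 46.7 and 10.8 in CD90-negative and 2.81, 2.48, 1.07, 4.42 and 6.19 in CD90-positive libraries. All 3 were higher in 5 of 5 pools, least so in pool 5, and for all 3 the lowest CD90-negative library, pool 3, lay within the CD90-positive range.

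The log2 folds with copies merged were 1.80 for mt-Co1 (SE 0.42, adjusted p = 0.0232), 1.79 for mt-Co2 (SE 0.42, adjusted p = 0.0246) and 1.68 for mt-Co3 (SE 0.36, adjusted p = 0.017), by edgeR. Counted apart from its copy, mt-Co2 had a fold of 4.75 by edgeR (SE 2.45, adjusted p = 0.305). That value rests on the minority of counts not placed on the copy, which was 0 in the CD90-positive libraries of pools 2 and 3. Without pool 4 the merged folds were 1.34, 1.35 and 1.28, all called, whereas mt-Co1 and mt-Co2 were not called without pool 1, 2 or 3 (adjusted p = 0.058 to 0.0785), nor mt-Co3 without pool 1 (0.0577). With copies not merged, mt-Co1 was also not called by DESeq2 (adjusted p = 0.37), by limma-voom (0.0574) or without the pool as a block (0.109), and mt-Co3 was not called without the block (0.145) or without pools 4 and 5 (0.0772).

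The coding sequences of complex V, ATP synthase, are read from overlapping frames, and mt-Atp8 and mt-Atp6 share 43 bases on the same strand. A read inside that stretch cannot be placed on one alone, so their values are not independent and need not be levels of separate transcripts. mt-Atp8 had 1.42, 1.29, 0.693, 8.76 and 1.94 counts per 1000 nuclear protein-coding counts in CD90-negative and 0.493, 0.388, 0.178, 0.856 and 0.792 in CD90-positive libraries. mt-Atp6, the proton channel subunit, had with its copy 11.5, 14.7, 7.95, 72.5 and 18.4 in CD90-negative and 4.93, 4.83, 1.71, 6.46 and 10.7 in CD90-positive libraries. Both were higher in 5 of 5 pools. The log2 fold was 1.72 for mt-Atp8 (SE 0.30, adjusted p = 0.0087) and, with its copy, 1.60 for mt-Atp6 (SE 0.40, adjusted p = 0.0311) by edgeR. The call of mt-Atp8 held without each pool in turn, and that of mt-Atp6 was lost without pool 1, 2 or 3 (adjusted p = 0.0682 to 0.0815). Without pool 4 the folds, copies merged, were 1.34 for mt-Atp8 and 1.17 for mt-Atp6. Without the pool as a block mt-Atp8 was not called (adjusted p = 0.1).

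The mRNAs of complexes I and III had smaller folds and were not called. mt-Cytb, the mitochondrial subunit of complex III, had 14.6, 17.9, 7.76, 71.2 and 18.6 counts per 1000 nuclear protein-coding counts in CD90-negative and 7.50, 7.36, 2.00, 10.1 and 19.2 in CD90-positive libraries. Its log2 fold was 1.16 (SE 0.40, adjusted p = 0.101 by edgeR), and in pool 5 the CD90-negative library was the lower. Of the complex I subunits, the proton-pumping membrane arm of the complex, mt-Nd1 had the largest fold at 1.21 (SE 0.39, adjusted p = 0.0796). The folds of mt-Nd2, mt-Nd3, mt-Nd4 and mt-Nd5 were 0.97, 0.83, 1.09 and 1.01 with copies merged, with adjusted p between 0.145 and 0.172 by edgeR. mt-Nd4l, whose last 7 bases overlap mt-Nd4, had 1.05 with its copy (adjusted p = 0.133). Without pool 4 the folds, copies merged, were 0.76 for mt-Cytb, 0.83 for mt-Nd1, 0.62 for mt-Nd2, 0.54 for mt-Nd3, 0.66 for mt-Nd4 and mt-Nd4l and 0.60 for mt-Nd5. DESeq2 called mt-Cytb and mt-Nd1 to mt-Nd5 but not mt-Nd4l or mt-Nd6, and without pool 5 edgeR called mt-Cytb, mt-Nd1, mt-Nd2, mt-Nd3 and mt-Nd4 beside 4.61% of all genes called higher. With copies merged and without pool 5 mt-Nd4l was called too, at a log2 fold of 1.41 (edgeR adjusted p = 0.033), beside 4.63% of all genes, so the absence of a call for these genes depends on the method and on that pool.

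Within the mitochondrial mRNA itself, the shares of complex IV and of complex I lay apart between the groups, as a description with no test. The shares are parts of one sum, so a higher share of one complex lowers the others, and they are not separate results. With copies merged, complex IV mRNAs took 50.6, 48.8, 47.4, 56.0 and 52.7% of mitochondrial mRNA counts in CD90-negative and 39.5, 38.8, 42.1, 41.9 and 41.3% in CD90-positive libraries. Complex I mRNAs took 27.9, 27.5, 29.5, 22.0 and 24.5% in CD90-negative and 35.9, 37.2, 34.2, 33.4 and 35.0% in CD90-positive libraries. Neither pair of ranges overlapped, and the direction was the same in 5 of 5 pools. mt-Cytb took 11.2% ± 0.814 and 13.9% ± 0.994 and was lower in 5 of 5 pools, whereas complex V took 11.4% ± 0.833 and 10.2% ± 0.948 and was higher in 4 of 5 (SD, n = 5 each).

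The summed complex IV and V counts per complex I and III count were 1.54, 1.50, 1.47, 2.10 and 1.82 in CD90-negative and 0.992, 0.952, 1.15, 1.10 and 1.01 in CD90-positive libraries. Without merging, the ratio averaged 1.06 ± 0.178 and 0.655 ± 0.0608 (SD, n = 5 each), and the groups again lay apart. No test was made of these sums. In a fit scaled to the mitochondrial mRNA with copies merged, where 0.234% of all genes were called higher and 29.2% lower, 0 of the 20 mitochondrial genes were called. Scaled to the mRNA without the copies, 0 of the 20 were called as well, beside 0.254% of all genes called higher and 25.2% lower. With copies merged the log2 folds on this scale for mt-Co1, mt-Co2, mt-Co3, mt-Atp8 and mt-Atp6 were 0.35, 0.33, 0.22, 0.26 and 0.15, and those of mt-Cytb and the 7 complex I genes ran from -0.26 to -1.17. Because the mRNAs are scaled here to their own sum, positive folds of some go with negative folds of others by construction.

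**Figure D4:**
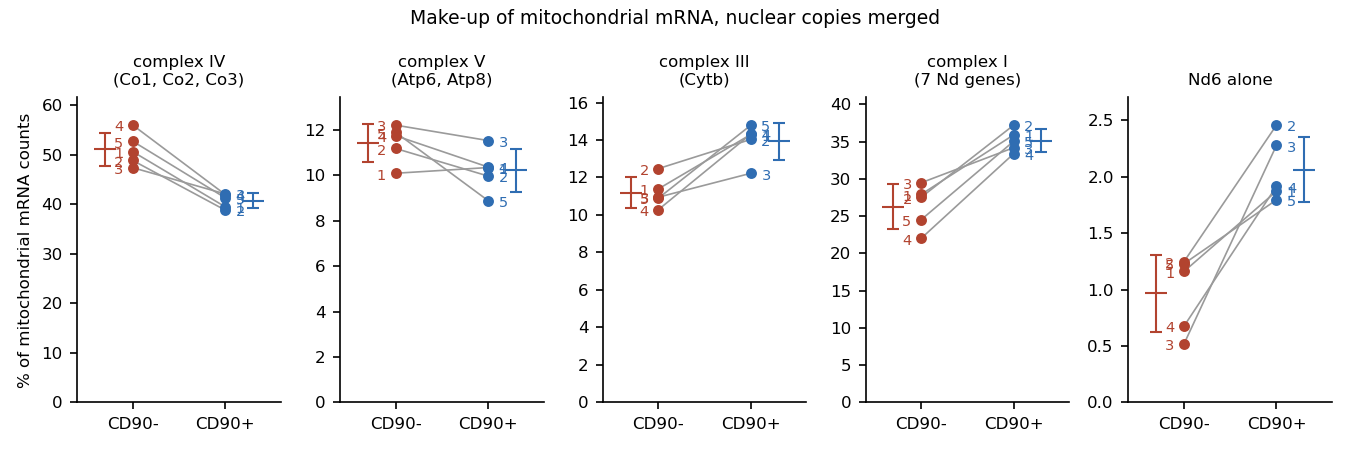
Share of mitochondrial mRNA counts with nuclear copies merged (percent, y axis) taken by the genes of each respiratory complex and by mt-Nd6 alone, CD90-negative left of CD90-positive. Points are libraries numbered by pool, lines join a pool, bars give mean and SD (n = 5); complex IV is higher (47.4 to 56.0% against 38.8 to 42.1%), complex I (22.0 to 29.5% against 33.4 to 37.2%) and mt-Nd6 lower in CD90-negative libraries without overlap.

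mt-Nd6 (ENSMUSG00000064368) showed the smallest fold of the 13 mRNAs. It encodes a complex I subunit and is the only mRNA transcribed from the other strand of the circle. It had 1.49, 1.79, 0.367, 4.68 and 2.10 counts per 1000 nuclear protein-coding counts in CD90-negative and 0.983, 1.29, 0.373, 1.35 and 2.33 in CD90-positive libraries, a log2 fold of 0.29 (SE 0.27, adjusted p = 0.569, edgeR) that was -0.06 without pool 4. As a share of mitochondrial mRNA counts, copies not merged, it measured 1.50, 1.61, 0.691, 0.908 and 1.63% in CD90-negative libraries and 2.35, 2.99, 2.85, 2.38 and 2.26% in CD90-positive libraries. All CD90-negative libraries lay below all CD90-positive ones.

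The mt-Nd6 share differed by -1.09 on the log2 scale (SD 0.64 over pools), with an exact paired permutation p of 0.0625, two-sided, the smallest that 5 pools allow, so no threshold of 0.05 could be reached. With copies merged the difference was -1.17 with the same p. The gene overlaps mt-Nd5 on the opposite strand by 14 bases, and since no source used here states the strand setting of the counting, reads from that strand cannot be told apart from its own.

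Per unit of length, the order of the mRNAs was similar in both groups. As a share of the summed TPM of mitochondrial mRNAs with copies merged, mt-Co1 was highest, at 21.3% ± 2.07 in CD90-negative and 15.8% ± 0.973 in CD90-positive libraries (SD, n = 5 each). mt-Co2 and mt-Atp6 followed, at 15.6% ± 1.29 and 14.3% ± 1.25 in CD90-negative and 12.5% ± 0.872 and 13.3% ± 1.13 in CD90-positive libraries, and their ranges overlapped in both groups. mt-Co1 lay apart from the next gene in CD90-negative libraries and overlapped it in CD90-positive ones. At the lower end stood mt-Nd3, at 0.918% ± 0.373 and 1.51% ± 0.356. mt-Nd6 ranked 12 of 13 in CD90-negative libraries, at 1.73% ± 0.616, and 11 of 13 in CD90-positive libraries, at 3.94% ± 0.669. In CD90-positive libraries mt-Nd6 overlapped mt-Nd2 and mt-Nd5, its neighbours in that order. By mean, the complex IV and V genes ranked above the complex I genes other than mt-Nd1 in both groups, and mt-Cytb ranked 4 of 13 in both. The rank of mt-Atp8 is uncertain, since it shares bases with mt-Atp6 and had effective lengths of only 64.3 to 86.6 bases. In CD90-positive libraries the ranges of mt-Co3 and mt-Nd4l, neighbours in that order, overlapped.

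The transfer RNAs contributed few counts, and more in CD90-negative libraries. The 22 genes together had 70, 351, 337, 1857 and 1421 counts in CD90-negative and 24, 65, 87, 234 and 42 in CD90-positive libraries, which is at most 0.00404% of gene-matched counts in any library. At least 1 count was seen for 11, 15, 18, 22 and 20 of the 22 genes in CD90-negative and 7, 13, 15, 17 and 11 in CD90-positive libraries. Their lengths of 59 to 75 bases leave effective lengths of only 4 to 11 bases, so levels per length are not compared. Whether the counts came from mature tRNAs, precursors or fragments was not tested. Relative to mitochondrial mRNA with copies merged there were 0.494, 2.12, 2.40, 7.23 and 8.69 tRNA counts per 10000 mRNA counts in CD90-negative and 0.458, 0.670, 1.86, 2.27 and 0.710 in CD90-positive libraries. The CD90-negative library was the higher in 5 of 5 pools, with next to no difference in pool 1.

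The tRNAs for glycine (mt-Tg, ENSMUSG00000064359) and proline (mt-Tp, ENSMUSG00000064372) held 53.1% ± 7.35 of tRNA counts in CD90-negative and 41.5% ± 8.64 in CD90-positive libraries (SD, n = 5 each), higher in 5 of 5 pools. They are the tRNAs called by edgeR with all pools, but passed the filter largely through CD90-negative libraries, so their direction adds no support. Both are shown from the same transcripts as DNA letters, with the anticodon in capitals as placed by stem pairing. mt-Tg lies on the same strand as mt-Co1 and the rRNAs and mt-Tp on that of mt-Nd6.
mt-Tg: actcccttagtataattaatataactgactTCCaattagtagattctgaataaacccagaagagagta
mt-Tp: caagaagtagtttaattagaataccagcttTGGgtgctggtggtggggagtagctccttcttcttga

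mt-Tg had 13, 81, 142, 517 and 460 counts in CD90-negative and 0, 11, 36, 81 and 7 in CD90-positive libraries. mt-Tp had 20, 71, 56, 540 and 382 counts in CD90-negative and 7, 16, 9, 29 and 9 in CD90-positive libraries. Against nuclear protein-coding counts both were higher in 5 of 5 pools with overlapping group ranges, and most of their counts came from the CD90-negative libraries of pools 4 and 5. The log2 fold was 3.76 for mt-Tg (SE 0.47, adjusted p = 0.0024) and 3.42 for mt-Tp (SE 0.68, adjusted p = 0.0127) by edgeR. Without pools 4 and 5 neither was called (adjusted p = 0.179 and 0.341), and without pool 4 mt-Tp was also not called, at a fold of 2.66 (0.0753), while mt-Tg was called at 3.58. The 3 other tested tRNAs, mt-Tv, mt-Tn and mt-Tk, had folds of 2.13, 3.22 and 1.88 and were not called, although DESeq2 called all 3. Without pool 4 the folds of mt-Tv and mt-Tk were 1.47 and 1.22, and mt-Tn did not pass the filter.

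A tRNA gene passed the filter on low counts largely through the CD90-negative libraries, so the 5 tested are not representative of the 22. Of the 17 untested, mt-Ti had 3, 40, 5, 109 and 122 counts in CD90-negative and 0, 0, 4, 9 and 1 in CD90-positive libraries. mt-Ts1 had 4, 7, 9, 82 and 57 in CD90-negative and 2 in the CD90-positive library of pool 4 alone. mt-Ts2, mt-Ty and mt-Tr had 0 counts in all 5 CD90-positive libraries, which allows up to 3 counts in each, and 43, 3 and 3 counts over the 5 CD90-negative libraries. The other 12 untested tRNAs had between 0 and 94 counts in a CD90-negative library and between 0 and 16 in a CD90-positive library.

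**Figure D5:**
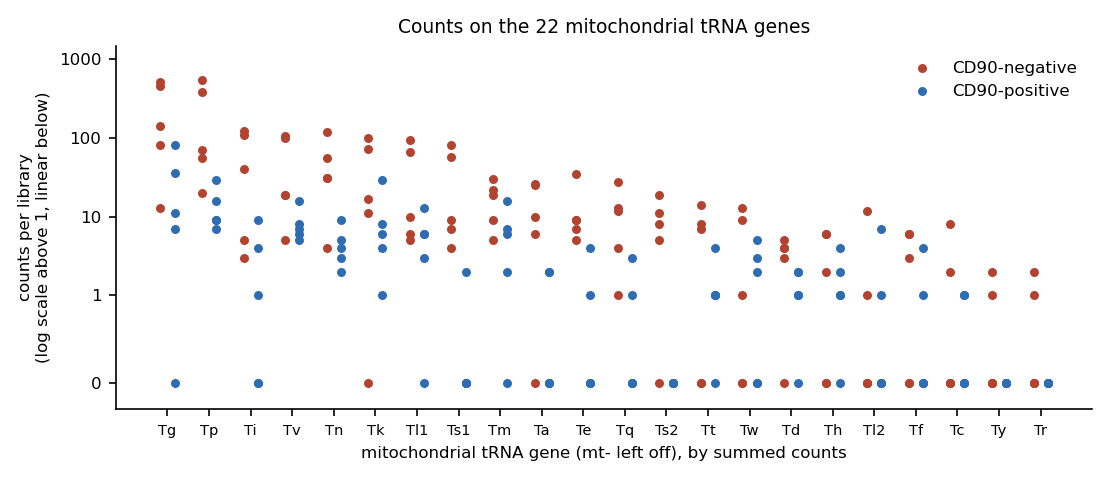
Counts per library (y axis, log scale above 1) on each of the 22 mitochondrial tRNA genes, CD90-negative left of CD90-positive, 1 point per library. mt-Tg and mt-Tp reach 517 and 540 counts in CD90-negative libraries, and the CD90-positive libraries stay at 81 counts or below throughout.

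Few of the nuclear genes that act on mitochondrial DNA or RNA, or regulate mitochondrial biogenesis, were called. Of 45 such genes, 43 were tested and 1 was called, higher, beside 5.83% of all genes called higher. The median log2 fold of the 43 was 0.11. Genes that transcribe mitochondrial DNA or cut, stabilise, modify or degrade its RNA had 0 calls by edgeR. The called gene was Twnk, the helicase that unwinds mitochondrial DNA for replication, at 19.4 ± 6.75 CPM in CD90-negative and 10.1 ± 1.97 in CD90-positive libraries (SD, n = 5 each). Its log2 fold was 0.88, with an SE of 0.25 and an edgeR adjusted p of 0.044. Its call was lost without pool 1, 2, 4 or 5. Polrmt, the mitochondrial RNA polymerase, averaged 9.47 ± 2.15 CPM in CD90-negative and 8.46 ± 1.65 in CD90-positive libraries (SD, n = 5 each; edgeR adjusted p = 0.797). Tfam, which packages the DNA and starts transcription, averaged 6.10 ± 2.19 in CD90-negative and 7.09 ± 2.33 in CD90-positive libraries (SD, n = 5 each; edgeR adjusted p = 0.708).

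For Elac2, which cuts precursors at the 3′ ends of tRNAs, the log2 fold was 0.05, with an SE of 0.22 and an edgeR adjusted p of 0.925. Of the pair that stabilises mitochondrial mRNA, Lrpprc had 0.59 (SE 0.26, adjusted p = 0.183) and Slirp 0.11 (SE 0.58, adjusted p = 0.929). Pnpt1, a ribonuclease that degrades mitochondrial RNA, had 0.39 (SE 0.27, adjusted p = 0.413). None of these 6 genes was called.

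The nuclear-encoded partners of the mitochondrial subunits were not called either. Of 76 nuclear respiratory chain genes tested by edgeR 0 were called in either direction, beside 5.83% of all genes called higher and 7.05% lower. At an unadjusted p under 0.05 there were 6 of the 76, beside 26.9% of all genes, and DESeq2 called 1, higher, beside 10.6% of all genes. The median log2 fold was 0.04 for 37 complex I subunits, -0.19 for 9 of complex III, 0.42 for 11 of complex IV and 0.22 for 15 of complex V, beside 0.04 for all genes tested. For complex II, which has no mitochondrially encoded subunit, it was 0.27 over 4 genes.

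Markers of fibroblasts and of cancer epithelial cells also differed between the groups. Their calls by edgeR stand beside 5.83% of all genes called higher and 7.05% lower. The summed level (CPM) of 9 fibroblast markers was 4052 to 20455 in CD90-negative and 32400 to 53864 in CD90-positive libraries, with 8 of 9 called lower. All 7 myofibroblastic markers were called lower, with sums of 180 to 389 and 751 to 1386. Cancer epithelial markers summed to 723 to 2973 in CD90-negative and 181 to 1631 in CD90-positive libraries, 7 of 10 being called higher and none lower.

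Markers of blood vessel, immune and other cells were less abundant. Calls in these short lists stand beside 5.83% of all genes called higher and 7.05% lower by edgeR. An unadjusted p under 0.05 was reached by 26.9% of all genes. In CD90-negative and CD90-positive libraries, endothelial markers summed to 30.9 to 249 and 26.8 to 37.5 (2 of 6 tested called higher) and macrophage markers to 17.6 to 51.3 and 7.69 to 14.2 (1 of 7 tested called higher). The CD90-negative library of pool 2 held the endothelial maximum of 249, and the other CD90-negative libraries reached at most 60.2. Pericyte markers summed to 160 in that library and to 12.0 to 32.7 in the other CD90-negative libraries, against 48.5 to 81.2 in CD90-positive libraries (0 of 6 called, 5 of 6 at an unadjusted p under 0.05). Mesothelial markers summed to 152 to 243 in CD90-negative and 165 to 282 in CD90-positive libraries. Of the 4 tested mesothelial markers 1 was called higher and 0 lower, the other 3 had negative folds, the median log2 fold was -1.64, and Krt5 was at 0 in every library. T cell markers stayed at 1.76 to 7.37 in CD90-negative and 0.786 to 3.67 in CD90-positive libraries, with Cd3e, Cd3g and Cd2 at 0 in all CD90-positive libraries. Acinar markers stayed at 2.04 to 33.4 in CD90-negative and 1.26 to 3.83 in CD90-positive libraries (1 of 2 tested called higher). Whether any of these cells contributed to the mitochondrial differences was not tested.

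Abundant noncoding RNAs of nuclear origin gave a comparison for the rRNAs. Of 12 such genes listed, 7 were found and tested, and 0 of these were called by edgeR. At an unadjusted p under 0.05 there were 2, beside 26.9% of all genes. All 7 had positive log2 folds, with a median of 0.44, beside 0.04 for all genes tested. Malat1 measured 15795 ± 4019 CPM in CD90-negative and 15828 ± 4500 in CD90-positive libraries, and Rpph1, the RNA of nuclear ribonuclease P, 1132 ± 421 and 1094 ± 475 (SD, n = 5 each). Neat1, the RNA scaffold of paraspeckles, measured 5611 ± 2573 CPM in CD90-negative and 3404 ± 1659.5 in CD90-positive libraries (SD, n = 5 each) and was higher in 4 of 5 pools. Rn7s2, an RNA of the signal recognition particle, reached 38595 CPM in the CD90-negative library of pool 4 and 1915 to 11651 in the other CD90-negative libraries, against 1768 to 8148 in CD90-positive libraries. Rn7s2 was higher in CD90-negative libraries in 4 of 5 pools. So was Rmrp, at 296 ± 188 and 272 ± 108 CPM (SD, n = 5 each), against 2 of 5 pools for Malat1 and 3 of 5 for Rpph1.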

How the data were processed

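The 10 RNA-seq libraries, 5 CD90-negative and 5 CD90-positive, were made with a stranded kit for small amounts of total RNA, per the labels' protocols. The authors deposited an estimated count, a TPM and an effective length per transcript. The submitters' processing notes list Salmon 1.9.0 and the builds GRCm39 and mm39, and no source used here states the annotation release or the strand setting. Deposited TPM were used only for levels per length and as an alternative unit. Salmon shares out reads that match paralogs or nuclear copies by a model, which makes the values of near-identical genes uncertain.

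Of 144584 transcripts, 133666 matched the GENCODE M21 annotation (GRCm38), which gave names, biotypes, chromosomes and sequences but no coordinates, since the builds differ. Unmatched transcripts, with 3.63 to 12.1% of a library's counts, were left out. Estimated counts were summed per gene and rounded. Copies were found with blastn 2.17.0. Depth makes counting error small for rRNA and mRNA and large for tRNA; the limit set by a count of 0 was 3 counts per library and, like all counting error, ignores PCR copies of the same molecule.

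Tests used edgeR 4.0.16 in R 4.3.3 (filterByExpr, TMM, glmQLFit robust, glmQLFTest) across all genes with the pool as a block, Benjamini-Hochberg adjustment and a threshold of 0.05. Folds are CD90-negative over CD90-positive. Single ratios were compared by exact sign flips over pools. The pairing rests on the animal numbers in the titles; deviations of a pool's libraries from their group means correlated by 0.06, 0.00, 0.46, 0.03 and 0.19. Where nothing else separates samples, p values measure the spread between these pools. No libraries of a group agreed within counting noise (chi-square per degree of freedom 39.2 to 1605). The code was tested on simulated data. Every mitochondrial gene could be named, as could called genes of the nuclear lists, Polrmt, Tfam, Elac2, Lrpprc, Slirp, Pnpt1, Thy1 and the nuclear noncoding RNAs. The members and lists were chosen with earlier results of these data known. Alternatives were other size factors, filters, DESeq2 1.42.0, limma-voom 3.58.1, a length offset, no block, pools left out, unmatched transcripts kept, scaling to mitochondrial mRNA and, added after the data were seen, merged copies.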

Additional observations from a re-analysis of the deposited data

Results flagged for a closer look

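The gap between one library and the next was tested with Dixon's criterion in each group of 5, over 56 groups of values, and 18 exceeded the critical value of 0.71, where chance gives about 1 in 20 groups. In 17 of them the CD90-negative library of pool 4 was the highest of its group, and these values share a denominator, that library's low count on nuclear protein-coding genes. Summed mitochondrial mRNA, copies not merged, reached 51.5 counts per 100 nuclear protein-coding counts there, next to 12.9 in pool 5.

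Per 1000 nuclear protein-coding counts, that library held 3779 counts of mt-Rnr1 and 6676 of mt-Rnr2, next to 884 and 1523 in the second highest. Of the complex IV and V mRNAs it held 253 of mt-Co1, 4.48 of mt-Co2, 24.1 of mt-Co3 and 8.76 of mt-Atp8, copies not merged. Of the complex I and III mRNAs it held 40.1 of mt-Nd1, 16.2 of mt-Nd2, 1.25 of mt-Nd3, 4.48 of mt-Nd4l, 46.3 of mt-Nd4, 38.3 of mt-Nd5 and 71.2 of mt-Cytb. Per 1000000 nuclear protein-coding counts it held 32.1 of mt-Tn, 27.2 of mt-Tk and 145 of mt-Tp.

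The remaining value was that of mt-Tg in the CD90-positive library of pool 4, at 5.56 counts per 1000000 nuclear protein-coding counts, next to 1.53 in pool 5.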

How the results depend on the processing

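The count of mitochondrial genes called, 7 of 20, was 3 with total counts only, 19 of 37 without a filter, 2 without the replicate block (mt-Tn and mt-Tp), 15 by DESeq2, 4 without pools 4 and 5, 2 at a threshold of 0.01 and 0 when scaled to mitochondrial mRNA, with or without merged copies. With each pool left out it ranged from 3 to 12, and with copies merged from 3 to 15. Of all genes tested, the 12.9% called (896 higher, 1084 lower) became 6.28% without the block (421 higher, 544 lower), 22.3% by DESeq2 (1623, 1809), 3.35% without pools 4 and 5 (357, 184), 4.58% at 0.01 (308, 396) and 4.37 to 13.6% with a pool left out. Without a filter the share called was 10.5% of 28069 genes, and with copies merged and a pool left out it was 4.44 to 13.6%. Total counts only called 118 higher and 1974 lower and moved the median of all genes to -0.90 on the log2 scale. Scaling to mitochondrial mRNA moved it to -1.36, and with copies merged to -1.44. The 1 machinery call, higher, gave way to 1 lower with total counts only and became 0 without the block, with a length offset, with unmatched transcripts kept, without pools 4 and 5 and at 0.01, 2 by DESeq2 and 0 to 1 with a pool left out. The 0 respiratory chain calls became 1 with total counts only (lower), 1 without a filter and 1 by DESeq2. Folds turned negative with total counts only for mt-Nd2 (-0.012), mt-Nd3 (-0.14) and mt-Nd6 (-0.67), all still above that setting's median. Scaled to mitochondrial mRNA, without and with merged copies, they were -0.18 and -0.26 for mt-Nd1, -0.42 and -0.50 for mt-Nd2, -0.56 and -0.66 for mt-Nd3, -0.30 and -0.38 for mt-Nd4, -0.37 and -0.43 for mt-Nd4l, -0.37 and -0.46 for mt-Nd5, -1.08 and -1.17 for mt-Nd6 and -0.23 and -0.32 for mt-Cytb. With a pool left out, the mt-Nd6 fold ran from -0.061 (pool 4, copies merged or not) to 0.46. The mt-Nd6 share compared without pairing differed by the same -1.09 with an exact permutation p of 0.00794. That test ignores that both libraries of a pool share animals, and its p is the smallest it allows, as whenever the groups lie apart. The mitochondrial and rRNA shares, mRNA per nuclear count and the rRNA ratio kept direction and size within 1 SD, or their side of the threshold, under every alternative run. The causes were not tested.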
